A study of Homo sapiens with 8 samples.

Results

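The CIITA locus on human chromosome 16 was examined for open chromatin in U2OS, an osteosarcoma line of human origin, with and without the zinc finger protein ZBTB48, and with and without interferon gamma (IFNγ). The locus was taken as the bodies of CIITA, DEXI, CLEC16A, SOCS1 and RMI2 in GENCODE 44 (GRCh38) with 10 kb on either side, which gave the intervals chr16:10856222-11192186 and chr16:11239619-11391662. In FAIRE-seq, chromatin is fixed with formaldehyde and sheared, and DNA free of nucleosomes is recovered and sequenced, so that a peak marks a site where such DNA piled up. Peaks that shared 1 bp or more across libraries were merged into 1 region. The locus held 38 of the 52105 regions on chromosomes 1 to 22 and X.

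The 8 libraries came from 4 clones, WT_4 and WT_5 (wild type, WT) and KO_C5 and KO_D2 (ZBTB48 knockout, KO), each a clone of the same line. Every clone gave 1 untreated library and 1 library after 250 U/ml IFNγ, so each of the 4 groups had n = 2. The labels give 24 hours of IFNγ, but the article names a longer exposure for FAIRE-seq, and the duration is therefore uncertain. Peak lists cannot show whether ZBTB48 was lost. The lists held between 16730 and 37533 peaks, and WT_4 after IFNγ (18913 peaks) stood apart from WT_5 after IFNγ (37533 peaks). Of 6 osteoblast and mesenchymal gene promoters, 1 to 4 carried a peak, depending on the library. RUNX2 had a promoter peak in all 8 libraries and COL1A2 in none. Of 6 B cell genes between 1 and 3 had a peak, with none at CD79A, MS4A1 or PAX5.

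CIITA is the transactivator that switches on MHC class II genes. It is transcribed from alternative promoters: pI is used in dendritic cells, pIII in B cells, and pIV answers to IFNγ through factors that include IRF1 and USF1. The neighbouring genes have other roles. SOCS1 is an inhibitor of JAK kinases that limits the IFNγ response, RMI2 is a subunit of the BLM helicase complex, CLEC16A acts in endosomes and mitophagy, and DEXI is a small protein whose function is little known.

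The sequences shown, at sites on which the results below turn, are those of CIITA pIV, an RMI2 intron and the SOCS1 promoter. They were read from the GRCh38 reference, 5′ to 3′. In pIV (chr16:10878669-10878968, plus strand) capitals mark an E box, CACGTG, and a run of 2 overlapping IRF elements (GAAA, any 2 bases, GAAA). In the RMI2 intron (chr16:11297619-11297918, plus strand) they mark an IRF element and an E box, and in the SOCS1 promoter (chr16:11256205-11256454, minus strand) an IRF element.
CIITA promoter IV: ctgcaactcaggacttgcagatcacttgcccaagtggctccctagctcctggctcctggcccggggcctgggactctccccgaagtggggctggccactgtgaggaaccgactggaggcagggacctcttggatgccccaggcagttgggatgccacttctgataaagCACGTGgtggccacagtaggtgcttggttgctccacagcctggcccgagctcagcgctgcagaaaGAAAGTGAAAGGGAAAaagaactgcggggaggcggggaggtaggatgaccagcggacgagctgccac
RMI2 intron: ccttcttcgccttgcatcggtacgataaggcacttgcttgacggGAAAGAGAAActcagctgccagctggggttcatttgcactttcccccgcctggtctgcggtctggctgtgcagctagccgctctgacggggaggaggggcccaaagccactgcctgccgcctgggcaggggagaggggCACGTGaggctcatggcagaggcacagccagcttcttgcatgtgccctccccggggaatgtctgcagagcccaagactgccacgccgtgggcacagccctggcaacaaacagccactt
SOCS1 promoter: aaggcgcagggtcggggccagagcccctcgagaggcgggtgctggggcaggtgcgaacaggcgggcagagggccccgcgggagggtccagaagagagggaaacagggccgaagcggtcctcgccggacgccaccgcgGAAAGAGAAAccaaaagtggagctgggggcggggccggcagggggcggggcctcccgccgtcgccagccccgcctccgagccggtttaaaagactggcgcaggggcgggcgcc

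Most regions of the locus lay away from promoters. Of the 38 regions, 9 came within 500 bp of an annotated start of the 5 genes and 29 did not. By summit, 26 lay in introns, 5 in coding sequence, 3 in untranslated regions and 4 between genes. Their length ran from 200 to 3068 bp with a median of 392 bp. Along the chromosome, 7 regions lay at CIITA upstream of the DEXI promoter, 2 were the DEXI and CLEC16A promoters, 8 lay in the CLEC16A body and 21 around SOCS1 and RMI2. The map of peaks along the locus shows this spacing.

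**Figure D1:**
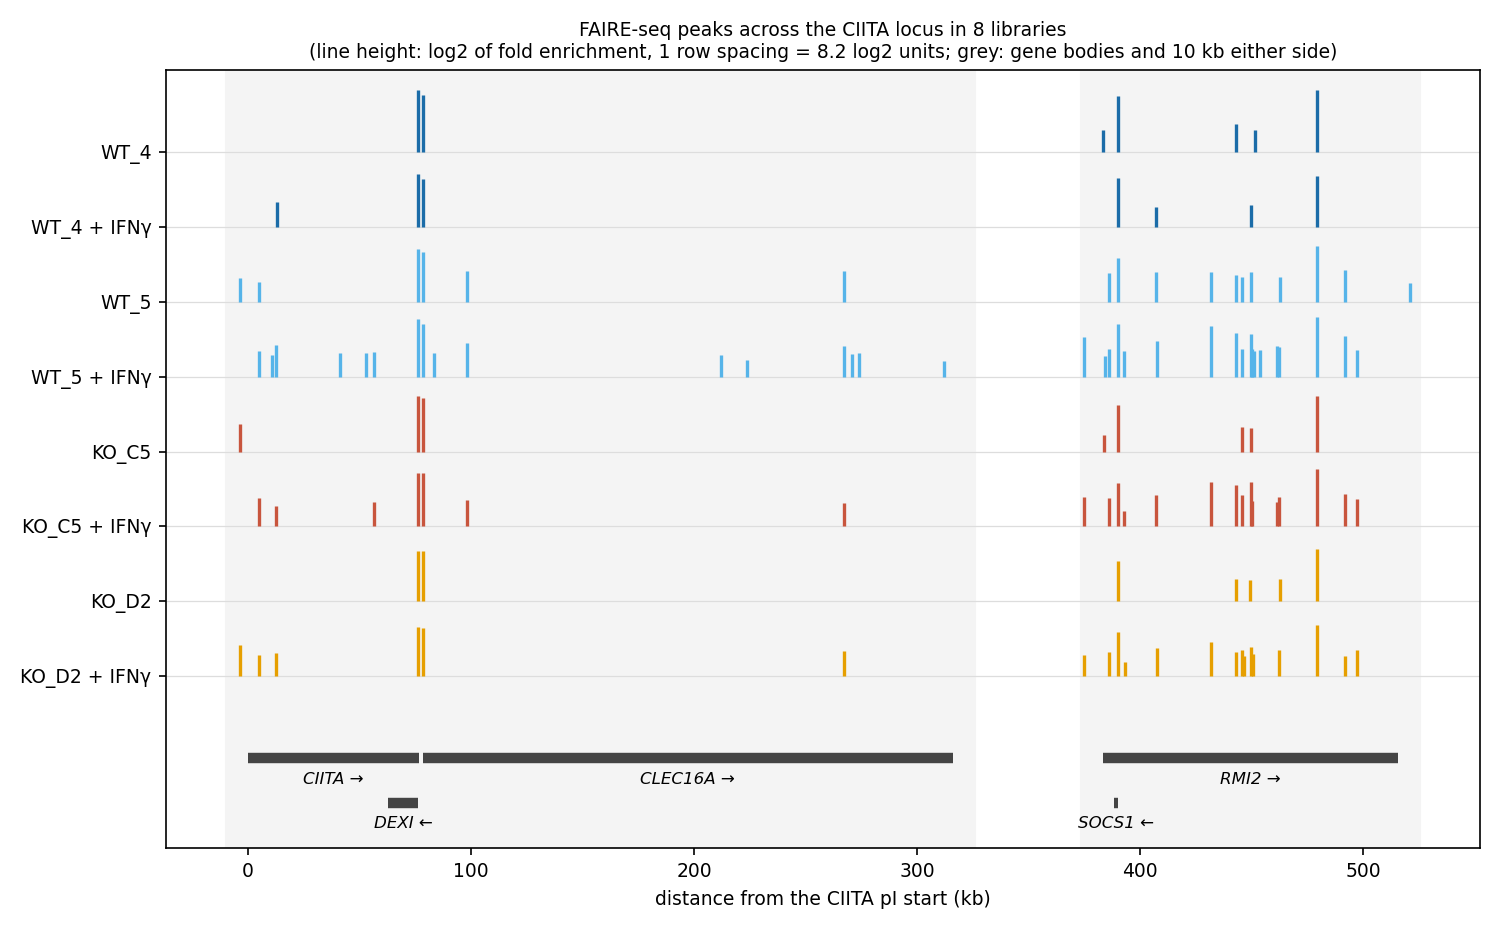
FAIRE-seq peaks in each of the 8 libraries (rows), by distance of the summit from the CIITA pI start in kb, with line height giving the log2 of fold enrichment and dark bars the 5 gene bodies. Peaks at the DEXI, CLEC16A, SOCS1 and RMI2 promoters stand in every row, while the CLEC16A body has 8 peaks in WT_5 after IFNγ and 0 in both WT_4 libraries.

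A peak in each of the 8 libraries was found at only 4 regions, the promoters of the 4 neighbours of CIITA. This was 4 of 38 regions, while the share among all regions was 22.2%. At the other end, 13 of 38 regions had a peak in 1 library, against 38.9% of all regions. WT_5 after IFNγ supplied 11 of those 13.

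WT_5 and both KO clones listed more peaks in the locus after IFNγ than untreated, and WT_4 did not. Untreated libraries listed 7 (WT_4), 17 (WT_5), 8 (KO_C5) and 8 (KO_D2) peaks in the locus. After IFNγ they listed 7, 34, 23 and 22. The count was thus higher after IFNγ in 3 clones and stayed at 7 in WT_4, and the treated and untreated groups overlapped. The mean was 21.5 ± 11.1 with IFNγ and 10 ± 4.69 without (SD over n = 4 libraries each), a difference of 11.5. The lists themselves differed in length, so the count was also taken per 10000 listed peaks. It went from 3.22 to 3.70 in WT_4, from 5.75 to 9.06 in WT_5, from 4.15 to 8.38 in KO_C5 and from 4.78 to 8.90 in KO_D2. On this scale all 4 clones were higher after IFNγ, by 3.03 on average, and WT_4 after IFNγ remained below every other treated library and below 3 of the untreated ones. With every list cut to its 16730 strongest peaks, untreated and treated counts were 5 and 6 in WT_4, 12 and 11 in WT_5, 7 and 13 in KO_C5, and 8 and 12 in KO_D2, a mean difference of 2.5 peaks. The higher count after IFNγ in WT_5 was thus not seen with lists of equal length. Between genotypes, the means per 10000 were 5.43 ± 2.79 over WT clones and 6.55 ± 0.406 over KO clones (n = 2 each, SD), a difference smaller than the spread between the WT clones.

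**Figure D2:**
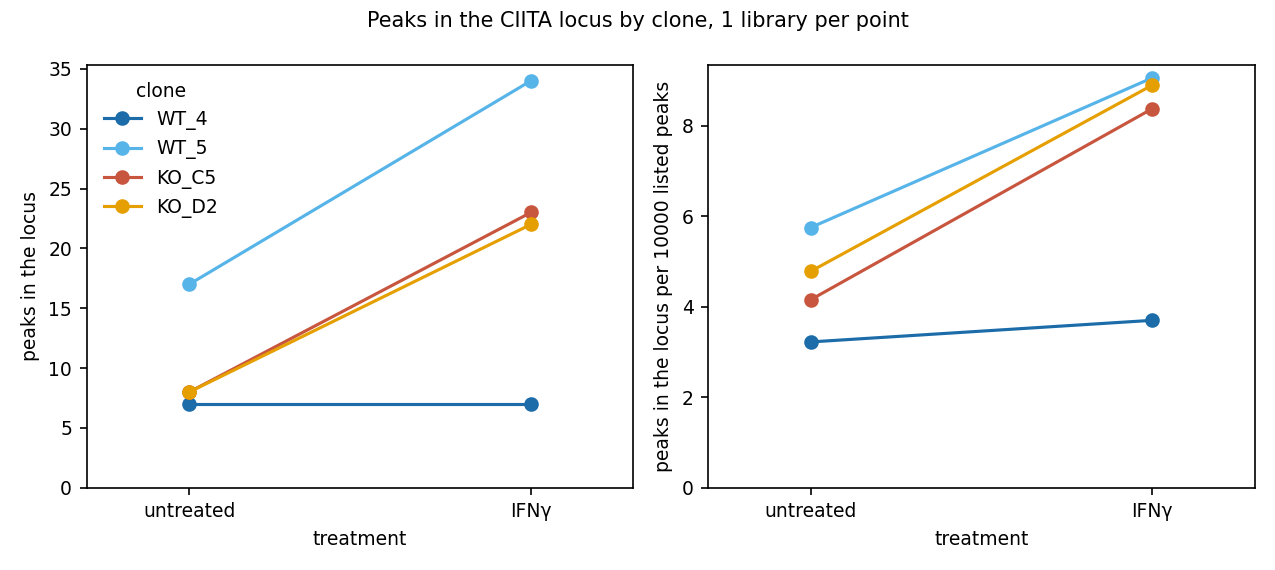
Peaks in the CIITA locus (left) and the same per 10000 listed peaks (right), untreated and after IFNγ, with 1 point per library and a line per clone. The lines of WT_5, KO_C5 and KO_D2 slope upwards, and that of WT_4 stays at 7 peaks and moves from 3.22 to 3.70 per 10000.

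Gains outnumbered losses in every clone except WT_4. Of the locus regions with a peak in either library of a clone, 19 of 36 were gained after IFNγ and 2 lost in WT_5, where 29.9% of all regions were gained and 10.1% lost. In KO_C5 16 of 24 were gained and 2 lost, where 37.1% of all regions were gained and 10.8% lost, and in KO_D2 14 of 21 were gained and 0 lost, where 35.5% were gained and 3.99% lost. In WT_4 3 of 10 were gained and 3 lost, where 13% of all regions were gained and 25.9% lost. The share of the locus that was gained was thus above that of all regions in each clone, 30% in WT_4, 52.8% in WT_5 and 66.7% in each KO clone.

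CIITA pIV was the 1 region of the locus with a peak in all 4 IFNγ libraries and in no untreated library. Genome-wide 66 regions shared this pattern, which is 0.127% of all regions. The opposite pattern was shown by no region of the locus over all libraries (0.00192% of all regions), in WT clones (0.509%) or in KO clones (0.245%). The region spans chr16:10878680-10879099, with a length of 420 bp, and covers the annotated pIV start at 10878969. Fold enrichment, the deposited ratio of the fragment pileup at the summit to the local background with 1 added to each, was 6.90 in WT_4, 11.6 in WT_5, 4.72 in KO_C5 and 5.81 in KO_D2. The pileup behind these values was 12, 28, 13 and 18 fragments. The −log10 p was 10.8, 26.5, 7.62 and 11.2 in the same order. WT_5 was thus the strongest and KO_C5 the weakest. Fold enrichment was higher in both WT clones than in both KO clones, while the pileup was lowest in WT_4. The log2 fold was also centred on each library's median over regions with a peak in all libraries. It was then −1.72 in WT_4, −1.67 in WT_5, −2.38 in KO_C5 and −1.58 in KO_D2. On that scale KO_D2 was the highest, so the order of the genotypes did not hold. The local background under the summit was 0.884 and 1.496 fragments in WT_4 and WT_5, and 1.97 and 2.27 in KO_C5 and KO_D2. Background was thus lower in both WT clones, as it was over whole lists, and its part in the fold was not tested. Within its own list the pIV peak stood at the 22.7th percentile of −log10 p in WT_4, the 55.0th in WT_5, the 7.80th in KO_C5 and the 19.7th in KO_D2. It was therefore a weak to middling peak in each library. WT minus KO after IFNγ was 4.00 in fold enrichment (9.26 ± 3.33 against 5.26 ± 0.771, SD, n = 2 each), with an exact permutation p = 0.333 (two-sided), the smallest that 4 clones allow, so that the design cannot reach 0.05. For the pileup the difference was 4.5 fragments (exact permutation p = 1). These comparisons were chosen after the values were seen. An absent peak is not a level of 0: the weakest pileup that any list held was 5 or 6 fragments, depending on the library.

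The summits at pIV lay close to its start and to the IRF elements printed above. The summit was 13 bp downstream of the start in WT_4, and 62, 41 and 81 bp upstream in WT_5, KO_C5 and KO_D2. The 2 overlapping IRF elements lie at chr16:10878902-10878917, from 52 to 67 bp upstream of the start, so that the WT_5 summit at 10878907 fell within them. The E box, the element that USF1 binds, lies at chr16:10878837-10878842. The percentile of pIV, with 0 for no peak, averaged 26.3 over IFNγ libraries and 0 over untreated ones. The exact permutation test over the 70 ways to split the libraries gave p = 0.0286 (two-sided), the smallest that it can give. A peak in every IFNγ library and in no untreated one fixes that p, whatever the percentiles. It therefore adds nothing to the pattern for which pIV was singled out. With Benjamini-Hochberg adjustment over 31829 regions with peaks in at least 2 libraries the adjusted p was 0.983, and 0 of these regions passed. The study's qPCR amplicon at pIV (chr16:10878681-10878785) overlapped the peaks of WT_5, KO_C5 and KO_D2 but not that of WT_4, which began at 10878854. At unadjusted p under 0.05, 0.873% of all regions were higher after IFNγ, and pIV was the 1 of 25 locus regions tested. That test left out the pairing by clone. With libraries paired, pIV gave an exact permutation p = 0.125, the smallest that 16 sign assignments allow. This value too is fixed by the pattern of presence, and 0 of 31829 regions were under 0.05. When every list was shortened to its 16730 strongest peaks, the pIV peak remained in 1 library, WT_4 after IFNγ.

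CIITA pIII, the promoter used in B cells, had a peak in 1 of 8 libraries. It was in WT_5 after IFNγ, at chr16:10877039-10877281, with a fold enrichment of 5.41, a pileup of 17 fragments and a percentile of 27.5. Its summit lay 53 bp upstream of the main CIITA start at 10877202. No other WT library and no KO library listed a peak there. Since 1 WT library of 4 and 0 KO libraries of 4 had it, no difference between genotypes can be read from its presence. Cut to the 16730 strongest peaks, the list of WT_5 after IFNγ no longer held it. CIITA pI had no peak in any library.

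The intermediate site between pI and pIII, which the study tested by qPCR, had a peak in both WT_5 libraries and in both treated KO libraries. This region, chr16:10871127-10871932, lies about 5.10 kb downstream of the pI start and 5.88 kb upstream of the pIII start by the WT_5 summit. WT_5 had a fold enrichment of 4.65 untreated and 6.96 after IFNγ, while KO_C5 and KO_D2 had no peak untreated and 8.83 and 4.93 after IFNγ. WT_4 had none in either library. A further region at the internal CIITA start at 10922167, chr16:10922380-10922614, was listed after IFNγ in WT_5 (fold enrichment 6.81) and KO_C5 (6.53) alone.

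No region of the locus marked either genotype. None was listed by all 4 WT libraries while missing from all 4 KO libraries, which 0.205% of all regions were, and none showed the converse (0.0115%). Within untreated libraries the counts were also 0 for WT-only and KO-only regions, where all regions gave 3.44% and 0.242%. Within IFNγ libraries they were again 0, beside 1.37% and 0.932%. At shares this low a set as small as the locus would hold few such regions or none, so these counts do not set it apart.

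Regions gained in both KO clones were more numerous than regions gained in both WT clones. In the KO clones 11 of the 25 regions listed there had a peak in both IFNγ libraries and in neither untreated library, where 10.4% of all regions did. In the WT clones 1 of 37 did, which was pIV, where 0.842% of all regions did. The WT count rested on WT_4: without its IFNγ library it was 18, and without the untreated library of WT_5 it was 3. Of the 11 regions, 6 had a peak in untreated WT_5 (the CIITA intermediate site, the CLEC16A intron, and 4 within RMI2), and WT_5 listed all 11 after IFNγ. With lists of equal length the counts were 2 in KO and 0 in WT. With regions joined by windows around the summits, the KO count was 10. At the region next to SOCS1, the peaks of KO_C5 and KO_D2 did not overlap each other. The difference between the genotypes in these counts was not tested.

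**Figure D3:**
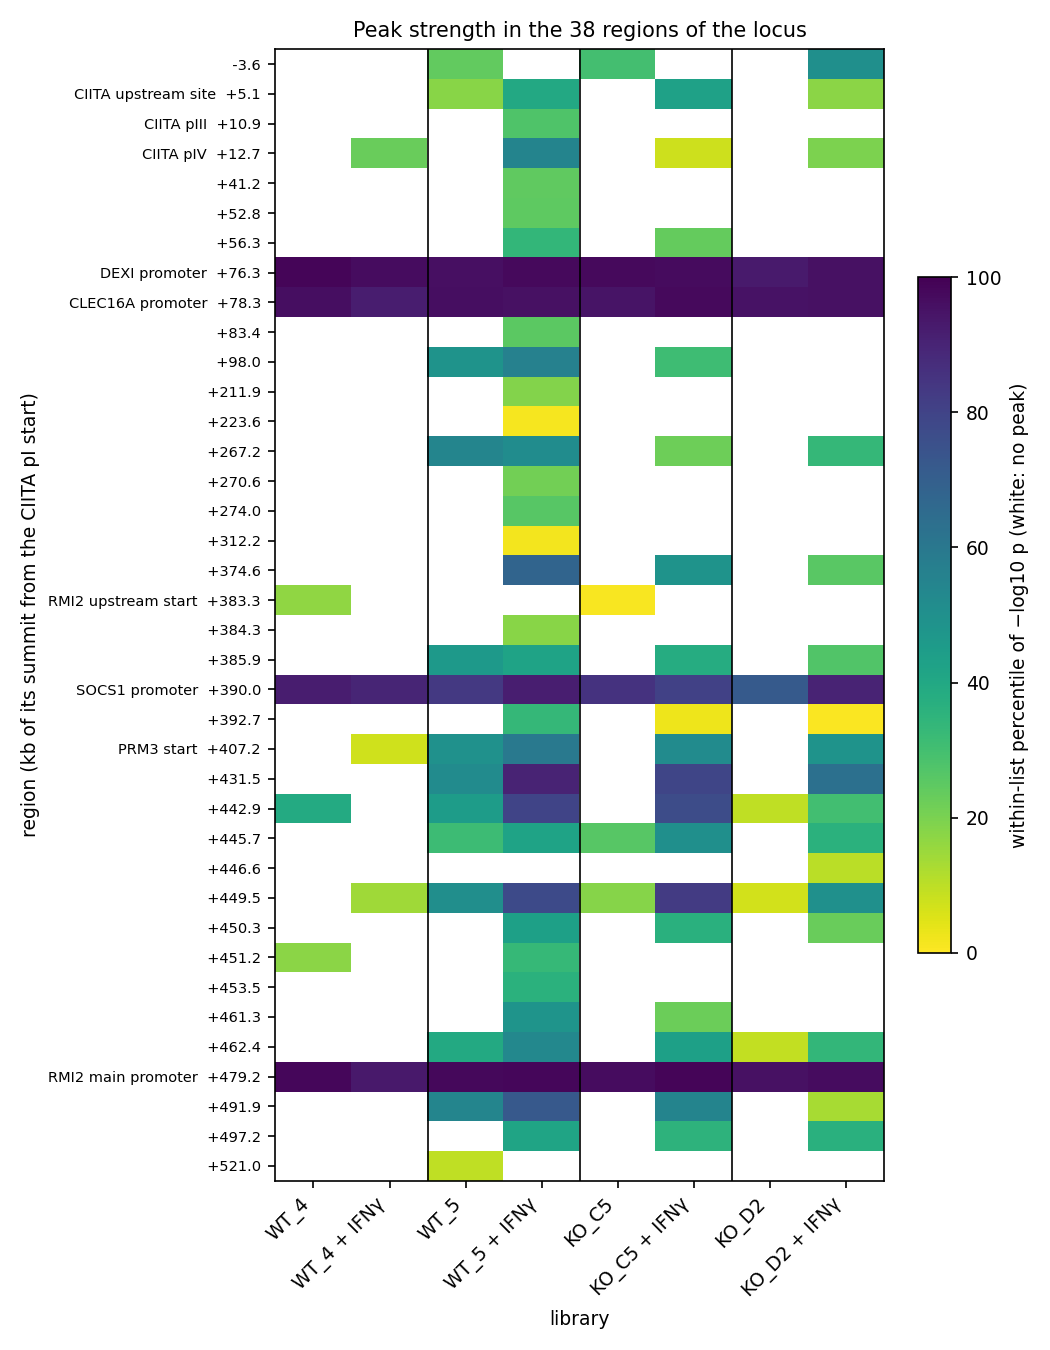
Within-list percentile of −log10 p in the 38 regions of the locus (rows, in chromosome order, with the distance of the summit from the CIITA pI start in kb) and 8 libraries (columns, grouped by clone); white means no peak. The DEXI, CLEC16A and RMI2 promoters are above the 92nd percentile in every library, and the SOCS1 promoter also has a peak in each. Of the 34 regions other than these 4 promoters, 30 have a peak in WT_5 after IFNγ. The number is 18 in KO_C5 and 17 in KO_D2 after IFNγ, and 13 in untreated WT_5.

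The DEXI, CLEC16A and RMI2 promoters were among the strongest sites of every library, and the SOCS1 promoter was broader and weaker. The DEXI promoter (chr16:10942010-10942925) had fold enrichments of 117 (WT_4), 55.5 (WT_5), 71.9 (KO_C5) and 44.5 (KO_D2) untreated, and of 58.3, 81.3, 59.9 and 41.2 after IFNγ. The groups overlapped, and WT_4 alone ranged from 58.3 to 117. Its percentile lay between 92.8 and 98.6. The CLEC16A promoter (chr16:10944220-10944999), which starts the gene that lies head to tail with CIITA, gave 79.4, 44.8, 60.3 and 46.4 untreated and 40.1, 55.0, 57.8 and 37.8 after IFNγ. Its percentile lay between 92.1 and 97.5, with the groups again overlapping.

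RMI2 was open at its main start and seldom at its upstream one. The main promoter (chr16:11345151-11345922) had fold enrichments of 122, 73.0, 68.5 and 53.7 in untreated WT_4, WT_5, KO_C5 and KO_D2. After IFNγ they were 51.9, 96.3, 76.9 and 47.4. KO_D2 was lowest under each treatment, and IFNγ values were below untreated ones in WT_4 and above them in WT_5. Whole lists shifted in the same directions. Over all regions with peaks in both libraries, the median log2 change was −0.559 in WT_4 and 0.469 in WT_5. Centred on each library's median as above, the log2 fold went from 1.826 to 1.195 in WT_4 and from 1.486 to 1.379 in WT_5. In KO_C5 it went from 1.735 to 1.651, and in KO_D2 from 1.560 to 1.447. On that scale the main promoter was thus lower after IFNγ in all 4 clones, and so was the CLEC16A promoter. The median IFNγ minus untreated difference of all 11551 regions was −0.079 on that scale. How many of them were lower in every clone was not counted. At the upstream start at 11249619 a peak was listed in 2 untreated libraries, WT_4 with 5.62 and KO_C5 with 3.61, and in no treated one.

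The SOCS1 promoter region spanned chr16:11254695-11257762, the longest of the locus, and covered the SOCS1 start and most of the gene. Fold enrichment was 72.3, 29.5, 34.7 and 21.9 in untreated WT_4, WT_5, KO_C5 and KO_D2, and 42.1, 54.5, 26.5 and 29.5 after IFNγ. IFNγ values were higher in WT_5 and KO_D2 and lower in WT_4 and KO_C5, so the clones did not move together. The summits lay within 44 bp of each other, from 11256227 to 11256271, upstream of the start at 11256204. The IRF element of the promoter, at chr16:11256308-11256317, lay 104 to 113 bp upstream of that start. Peaks were between 715 and 3068 bp long, and the percentile lay between 71.8 and 92.2.

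These 4 promoters did not change past the test with IFNγ or genotype. In limma, on log2 fold enrichment centred on each library's median over the 11551 regions with a peak in all libraries, IFNγ minus untreated was −0.23 (SE 0.21, adjusted p = 0.839) at DEXI and −0.28 (SE 0.18, adjusted p = 0.839) at CLEC16A. At RMI2 the limma difference was −0.23 (SE 0.18, adjusted p = 0.839), and at SOCS1 0.02 (SE 0.26, adjusted p = 0.988). WT minus KO over clone means was −0.07 (SE 0.30), −0.47 (SE 0.28), −0.13 (SE 0.27) and 0.20 (SE 0.31) in the same order of genes, with limma adjusted p between 0.762 and 0.969. The change with IFNγ in WT minus that in KO was 0.10 (SE 0.34), −0.02 (SE 0.31), −0.27 (SE 0.33) and 0.18 (SE 0.43). None of the 11551 regions passed in any of the 3 limma contrasts, and 4.16%, 6.11% and 6.67% had an unadjusted p under 0.05, among them 0 of the 4 promoters. Without centring, the median WT minus KO difference of all regions was 0.55, and the sign at DEXI, CLEC16A and RMI2 turned positive. In that fit 28 regions were called higher in WT and 6 lower, and 21.5% had an unadjusted p under 0.05, with 0 of the 4 promoters among them.

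Within the long RMI2 gene, 3 intronic regions had the largest ratios of IFNγ to untreated fold enrichment within a clone, among locus regions with peaks in both libraries. All 3 lie upstream of the main RMI2 start at 11345459, in introns of transcripts that begin further upstream. The first, chr16:11297539-11297990, lies 15.1 kb upstream of an internal RMI2 start and holds the IRF element and E box printed above. It had a fold enrichment of 9.66 in untreated WT_5 and 47.3 after IFNγ, a ratio of 4.90 that exceeded 99.95% of the 24339 regions with peaks in both WT_5 libraries. KO_C5 and KO_D2 had no peak untreated and 29.3 and 13.7 after IFNγ, with pileups of 90 and 47 fragments. WT_4 had no peak there in either library. After IFNγ it was at the 89.9th percentile of −log10 p in WT_5, the 79.3rd in KO_C5 and the 63.0th in KO_D2, so it outranked pIV in these 3 libraries. Summits in the 4 libraries fell within 23 bp.

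The second, chr16:11308716-11309295, had 27.6 in WT_5 after IFNγ against 7.67 untreated, and 24.0 in KO_C5, which had no untreated peak. In KO_D2 it was 5.46 untreated and 6.25 after IFNγ, and in WT_4 it was 8.63 untreated with no peak after IFNγ. WT_5 and KO_C5 were thus high after IFNγ, and WT_4 and KO_D2 were not. The third, chr16:11315229-11315972, had a peak in 7 libraries. It went from 9.71 to 27.0 in WT_5, from 5.85 to 30.5 in KO_C5 and from 4.96 to 8.73 in KO_D2, while WT_4 had no untreated peak and 5.31 after IFNγ. It was the 1 of these regions that was higher after IFNγ in, or gained by, all 4 clones. The ratio in KO_C5, 5.22, exceeded 99.4% of the 15421 regions with peaks in both libraries of that clone.

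These intronic differences did not pass a test across libraries. With regions kept that had peaks in at least 6 libraries, limma gave 1.22 (SE 0.41, adjusted p = 0.882, unadjusted p = 0.0198) for IFNγ minus untreated at the second region, with the 2 libraries lacking a peak dropped. At the third it gave 0.96 (SE 0.50, adjusted p = 0.882), with 1 library dropped. The percentile with 0 for no peak was 45.1 points higher after IFNγ at the first region, 23.3 at the second and 37.2 at the third, with exact permutation p = 0.143, 0.4 and 0.143 and an adjusted p of 0.983 for each. All 3 regions were still listed in both WT_5 and KO_C5 after IFNγ when lists were cut to equal length.

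**Figure D4:**
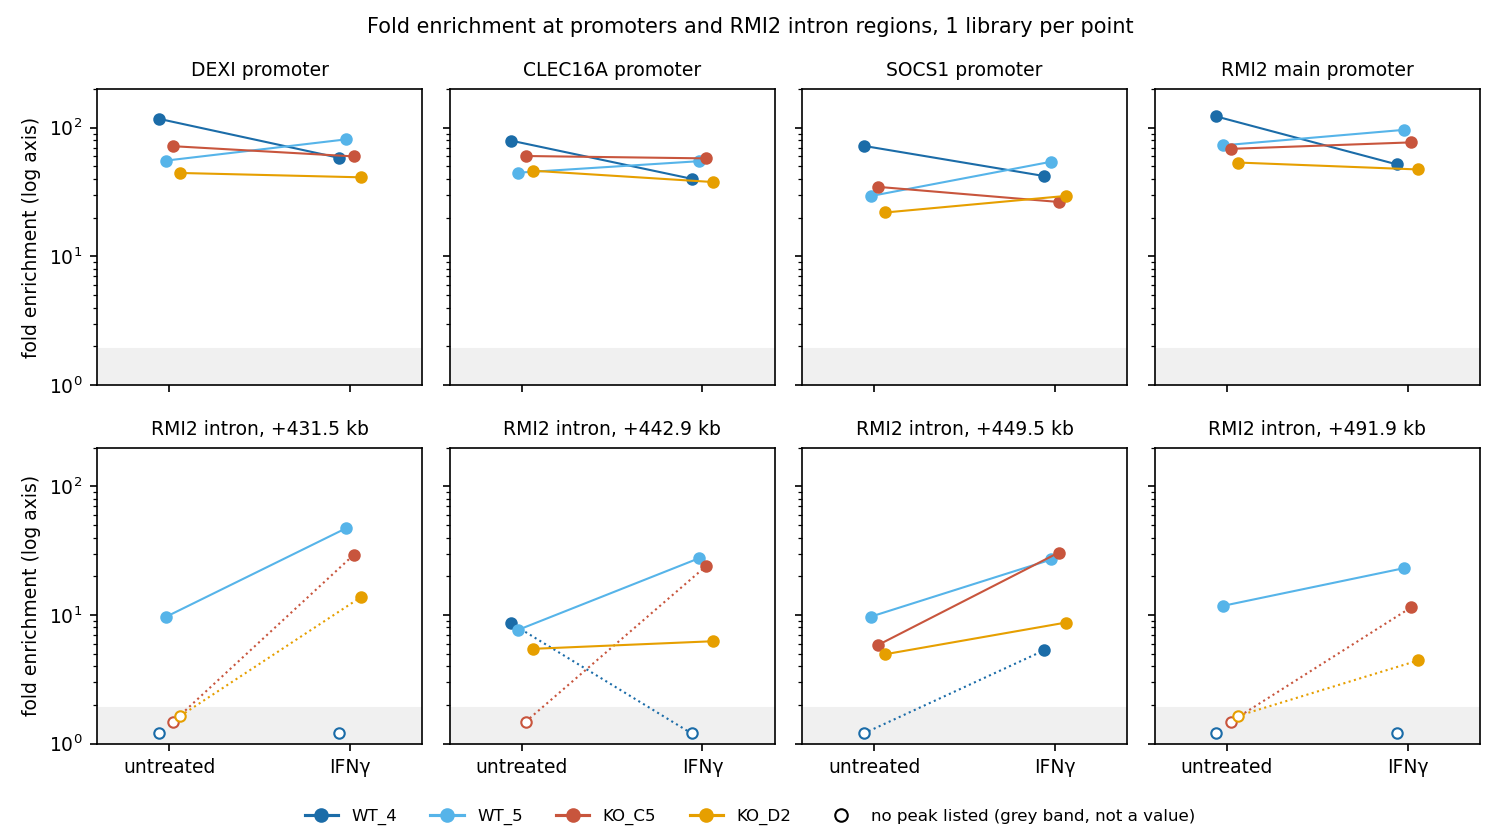
Fold enrichment (log axis) untreated and after IFNγ at the 4 promoters with a peak in all libraries (top) and at 4 RMI2 intron regions (bottom, by distance from the CIITA pI start), with 1 point per library and a line per clone. Open points in the grey band mean no peak and carry no value; dotted lines join them to a measured point. Promoters stay between 21.9 and 122, while the intron region at the left goes from 9.66 to 47.3 in WT_5.

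Other regions named for their presence in at least 4 libraries or their gain in both KO clones were weaker. The region at the start of PRM3, a protamine gene within RMI2 (chr16:11273029-11273902), had a peak in all 4 IFNγ libraries and in untreated WT_5. It had 4.78, 14.8, 11.3 and 8.46 after IFNγ in WT_4, WT_5, KO_C5 and KO_D2, and 9.76 in untreated WT_5. Its percentile was 29.4 points higher after IFNγ (exact permutation p = 0.0857, adjusted p = 0.983). An RMI2 intron region beyond the main promoter, chr16:11357866-11358293, went from 11.8 to 23.1 in WT_5 and was listed after IFNγ alone in KO_C5 (11.5) and KO_D2 (4.44). A CLEC16A intron region, chr16:11133371-11133660, gave 11.0 and 10.7 in WT_5, and 6.07 and 6.58 in KO_C5 and KO_D2 after IFNγ.

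Near SOCS1, the region chr16:11251931-11252337 showed the same pattern of clones, with 9.42 and 8.54 in WT_5 and with 8.56 and 6.27 in treated KO_C5 and KO_D2. Upstream of RMI2, chr16:11240632-11241212 was listed after IFNγ alone, with 20.9 in WT_5, 9.51 in KO_C5 and 5.00 in KO_D2. The SOCS1-proximal chr16:11258775-11259508 gave 7.15, 3.28 and 2.80 in these libraries. Its KO_C5 peak (11258775-11259008) and KO_D2 peak (11259227-11259490) do not overlap and were joined through the WT_5 peak. The window around the WT_5 summit (11258821-11259120) holds 3 IRF elements, and the KO_D2 peak lies outside that window. A further 2 RMI2 regions, chr16:11316379-11316901 and chr16:11363236-11363561, had between 5.37 and 8.41. Each of these 4 regions was listed in WT_5, KO_C5 and KO_D2 after IFNγ and in no untreated library (exact permutation p = 0.143 and adjusted p = 0.983 for each). That unadjusted p is fixed by the pattern of presence itself. The regions chr16:11311740-11312334 and chr16:11328477-11328830 had peaks in 5 libraries, with fold enrichments between 5.31 and 11.1. A region 11 bp before the internal RMI2 start at 11312900 was listed in KO_D2 after IFNγ alone, with 4.47.

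The remaining 15 regions held 21 peaks, with fold enrichments between 3.43 and 13.2 and a median of 6.30. WT_5 after IFNγ had a peak in 13 of them. Over all 25 locus regions with peaks in at least 2 libraries, 21 had a higher mean percentile after IFNγ (84%), where 75.6% of all regions did, and the median difference was 17.7 points against 5.06. With lists of equal length 15 regions could be compared, 10 were higher (66.7%, against 45.5% of all regions), and the medians were 1.89 and −0.73 points. List length moved with these values, and its part in the rest was not tested.

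Just inside the borders of the locus, the first region, chr16:10862512-10862835, had peaks in 3 libraries with fold enrichments between 6.41 and 10.5. Beyond the last border the nearest region, chr16:11396277-11396623, lay 4.62 kb outside and had 4 peaks between 4.39 and 8.68. Between the 2 intervals, chr16:11201655-11202350 lay 9.47 kb outside and had 5 peaks between 4.11 and 11.8.

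Sequence elements were counted in 300 bp around the strongest summit of each region, on both strands, as a description. IRF elements were in 7 of 38 windows (18.4%), where 4.11% of all 52105 windows held one: pIII, pIV, the SOCS1 promoter, the region next to it and 3 RMI2 regions. The 7 regions had 18 peaks in IFNγ libraries and 5 in untreated libraries, and the other 31 had 66 and 34. The E box CACGTG was also in 7 windows (18.4%, against 7.46%), with 13 and 4 peaks. In 3 regions, pIV, the RMI2 intron printed above and the weak KO_D2 site, it stood with an IRF element. Peaks were counted by region, also where they lay outside the window. The regions are defined by these same peaks, and the split by treatment over all 52105 windows was not counted. No link between an element and IFNγ can therefore be read from these peak counts. GAS elements of the form TTCNNNGAA were in 3 windows (7.89%, against 6.89%), AP-1 elements (TGANTCA) in 9 (23.7%, against 19.7%) and CCAAT boxes in 10 (26.3%, against 25.8%). The telomere hexamer TTAGGG, which ZBTB48 binds, was in 1 window, of a CLEC16A intron region (2.63%, against 6.81%), and the control hexamer GTGAGT in 9 (23.7%, against 16.4%).

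Most genes that carry the IFNγ signal to CIITA had a promoter peak with and without treatment. Of IFNGR1, IFNGR2, JAK1, JAK2, IRF1, IRF2 and USF1, 6 had a promoter peak in all 8 libraries, where 51.2% of 19962 protein-coding genes did. IRF1, the activator of pIV, stood between the 98.0th and 99.8th percentile. The exception was USF1, listed in WT_5 untreated and in WT_5, KO_C5 and KO_D2 after IFNγ. Of the 7 other SOCS family genes, 6 had a promoter peak in all libraries and SOCS2 in 3. All 3 partners of RMI2, which are RMI1, TOP3A and BLM, had one in every library. Regions with a peak in all 8 libraries, among which USF1 and SOCS2 were not, gave no limma call, as given above.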

How the data were processed

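FAIRE-seq was performed by the study in 8 libraries of 4 U2OS clones. The authors trimmed reads (trimmomatic), aligned them to GRCh38 with bowtie2 2.2.5, removed low mapping qualities with samtools 1.14 and called peaks per library in paired-end mode with MACS2 2.2.7.1. Input use and duplicates were not stated. The deposited lists, which precede the reproducibility step of the methods, hold fold enrichment (a ratio), −log10 p, −log10 q and a score. The authors' −log10 q was at least 1.30, and the score was not used here. The article gives a range of reads per FAIRE-seq sample, but the depth of each single library is unknown. Pileup and background were solved from fold and −log10 p with the Poisson model of the caller, and 100% of peaks gave whole fragments. Median background was 1.01 to 1.55 fragments in WT libraries and 1.83 to 3.05 in KO libraries.

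Regions were joined by overlap of at least 1 bp. The strongest peak of a region by −log10 p stood for a library. limma 3.58.1 (R 4.3.3) was run on log2 fold centred on the library median, without a clone block, and exact permutation on percentiles, each adjusted over all regions. limma was tested on simulated data. Regions were named when within 500 bp of a start of the 5 genes, in at least 4 libraries, or gained or lost in all libraries of a genotype or treatment. The members and lists were chosen with earlier results of these data known. Untreated and IFNγ libraries are paired by clone, per the labels; over 11551 regions the replicate difference correlated at 0.69 (WT) and 0.39 (KO) between treatments. Alternatives were percentile in place of fold, no centring, other overlaps, margins and thresholds, equal list lengths, the clone block and the omission of each library. Some sequences and 1 gene are not reported here.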

Additional observations from a re-analysis of the deposited data

Results flagged for a closer look

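The untreated WT_5 library listed 17 peaks in the locus where the other 3 untreated libraries listed 7 or 8, a gap larger than Dixon's limit for 4 values. WT_4 after IFNγ had 3.70 locus peaks per 10000 listed peaks where the other treated libraries had between 8.38 and 9.06, which also passed that limit. Chance flags about 1 in 20 such groups.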

How the results depend on the processing

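With all lists cut to the 16730 strongest peaks, the regions gained with IFNγ numbered 0 in place of 1 over all libraries and in WT, and 2 in place of 11 in KO. With each library left out in turn, gained regions ran from 1 to 5 over all libraries (5 without WT_4 after IFNγ) and from 1 to 18 in WT. With equal lists IFNγ minus untreated was 2.5 locus peaks (11.5 over full lists) and 1.49 per 10000 (3.03), and WT minus KO was −1.5 peaks (1) and −0.897 per 10000 (−1.12). With libraries left out in turn, IFNγ minus untreated ran from 7.33 to 16.3 peaks (7.33 without WT_5 after IFNγ) and from 2.51 to 4.30 per 10000, and WT minus KO from −3.25 to 5.25 peaks and from −2.17 to −0.064 per 10000. The sign of WT minus KO in peaks thus depended on the libraries and on list length. The clone block (pairing by clone) left 0 locus regions changed with IFNγ in limma and 0 in the permutation test, where the smallest p over 16 sign assignments is 0.125, and changed no call at the locus. Over all 11551 regions the blocked limma fit called 1 higher after IFNγ (0 without the block), and 14.4% had an unadjusted p under 0.05 (4.16% without).

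Among single regions no call changed, but 30 of 201 alternative values changed sign, none past a threshold, and the cause was not tested. On the limma scale without centring these were WT minus KO at DEXI (0.49), CLEC16A (0.089) and RMI2 (0.43) and the difference in IFNγ change at DEXI (−0.042). With percentiles the difference in IFNγ change was 5.30 points at CLEC16A and 5.63 at RMI2. With equal lists the IFNγ difference was −0.47 points at DEXI, 1.83 upstream of CIITA, and −2.01 and −4.49 in 2 CLEC16A introns. Leaving out libraries, WT minus KO ran from −0.20 to 0.061 at DEXI and from −0.28 to 0.033 at RMI2, and IFNγ minus untreated at SOCS1 from −0.18 to 0.17. The difference in IFNγ change ran from −0.13 to 0.34 at DEXI, −0.11 to 0.070 at CLEC16A, −0.53 to 0.0022 at RMI2 and −0.39 to 0.75 at SOCS1.

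Peak lists give no level where no peak was called, and the lowest listed pileup of 5 or 6 fragments limits what absence can mean. With 2 clones per genotype, clone and genotype effects cannot be told apart beyond the spread given.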
